A study of Mus musculus with 13 samples.

Results

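Plasma miRNAs were counted in 13 mice, and 4 mature miRNAs of 1907 in the count table are described here. They are mmu-miR-92b-3p, mmu-miR-92b-5p, mmu-miR-32-5p and mmu-miR-363-3p. miR-92b-3p was selected on its values in Givinostat mice against vehicle mice, so that comparison is given for it as a description with no test. miR-92b-5p was taken because it comes from the same hairpin, and miR-32-5p and miR-363-3p because they are the less abundant miRNAs with the same seed. The 4 groups were 3 naive wt mice (C57BL/10J, untreated), 3 naive mdx mice (C57BL10ScSn-Dmdmdx/J, untreated), 4 vehicle mdx mice and 3 Givinostat mdx mice, all male adults. All mdx mice lack full-length dystrophin in every tissue. Vehicle mice received 0.5% methylcellulose by gavage on 5 days a week for 15 weeks, and Givinostat mice received 37.5 mg/kg of Givinostat, a pan-inhibitor of histone deacetylases, in that suspension on the same schedule. Each library is the plasma of 1 mouse, taken in all 4 groups at time point T16, which the paper places after 15 weeks of treatment. Mice are named by the number in their label.

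A miRNA is cut from 1 arm of a short RNA hairpin and guides an Argonaute protein to messenger RNAs, mainly through its seed, bases 2 to 8 from the 5′ end. The usual guide strand and the strand from the other arm are both released when the hairpin is cut, and the other strand is mostly degraded. miRNAs that share a seed can share targets: the family of miR-25, miR-32, miR-92, miR-363 and miR-367 is known for lowering Bcl2l11 (Bim), a promoter of apoptosis. In plasma, miRNAs are carried in vesicles, in lipoproteins and bound to protein, and come from blood cells and from tissues, including damaged muscle. Fewer cells of a type and less RNA per cell cannot be told apart in such samples.

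The guide strands of the family are shown because the seed is what joins 3 of the 4 miRNAs, and because the near identity of miR-92b-3p and miR-92a-3p bears on how their reads are told apart. Sequences are from RefSeq (GRCm38.p6), 5′ to 3′, with the seed in capitals.
mmu-miR-92b-3p: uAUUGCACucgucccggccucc
mmu-miR-92a-3p: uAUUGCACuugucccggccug
mmu-miR-25-3p: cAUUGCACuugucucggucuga
mmu-miR-32-5p: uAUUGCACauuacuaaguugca
mmu-miR-363-3p: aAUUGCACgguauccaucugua
mmu-miR-367-3p: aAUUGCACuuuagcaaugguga

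The seed AUUGCAC was found in these 6 of the 1679 mature mouse miRNAs listed by RefSeq. Counted from the 5′ end of each, miR-92b-3p matched miR-92a-3p at 19 of 21 positions and differed by C10U and C21G (miR-92b-3p base first). It matched miR-25-3p at 16 of 22 positions, miR-32-5p at 11 of 22 and miR-363-3p at 10 of 22. Outside the seed, therefore, miR-32-5p and miR-363-3p share little sequence with miR-92b-3p. The GC content was 63.6% in miR-92b-3p, 31.8% in miR-32-5p and 40.9% in miR-363-3p.

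miR-92b-5p has another seed, GGGACGG, and is tied to miR-92b-3p only by the hairpin. The 83-base hairpin is printed with both arms in capitals, miR-92b-5p first, to show how they lie on 1 transcript.
Mir92b hairpin: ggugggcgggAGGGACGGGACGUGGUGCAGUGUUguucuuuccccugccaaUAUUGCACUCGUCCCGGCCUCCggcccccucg
mmu-miR-92b-5p: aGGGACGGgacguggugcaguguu

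Mir92b lies on the minus strand of chr3:89227116-89227198 (GRCm38.p6) and overlaps no other annotated gene, and the nearest are Mtx1 and Thbs3. Mir32 lies at chr4:56895229-56895298 on the minus strand, in an intron of Tmem245, which runs on the same strand. Mir363 lies on the minus strand of chrX:52741693-52741767, overlaps no other gene and is 70 bases from Mir92-2, with which it belongs to the miR-106a-363 cluster. The 3 guide strands thus come from separate loci.

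Library totals ran from 1167161 to 2899315 counts, and 368 of the 1203 miRNAs with a count passed the count filter and were tested. Levels are given as CPM, counts of a miRNA per 1000000 counts of the library, after scaling by the trimmed mean of M-values (TMM CPM), or, where said, as CPM of the library total. A count of 0 allows up to 3 counts, between 1.03 and 2.57 CPM per library, and this and the intervals on counts cover counting error only. Plasma RNA differed in make-up between the genotypes: the summed TMM CPM of 8 skeletal and heart muscle miRNAs was 9637 to 17566 in naive wt and 207198 to 422212 in naive mdx mice, and that of 4 liver miRNAs 316729 to 893079 and 13945 to 95975. The scaling therefore bears on every level comparison of naive mdx with naive wt mice. Of the 368 miRNAs, 99 (26.9%) were called higher and 61 (16.6%) lower in naive mdx mice by edgeR's quasi-likelihood test at an adjusted p under 0.05. Scaled by library totals the split was 118 higher and 23 lower, and by upper quartiles 82 and 96.

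All 4 miRNAs passed the filter, at very different depths. miR-92b-3p had 30 to 304 counts per mouse, miR-32-5p 5 to 61, miR-363-3p 2 to 29 and miR-92b-5p 0 to 17. miR-92b-5p passed only through naive mdx mouse 36 and Givinostat mice 34 and 35, the mice in which it was high, so its passing is no evidence that it differed. By comparison, miR-92a-3p had 4972 to 17042 counts and miR-25-3p 7580 to 18265, and miR-367-3p, a miRNA of pluripotent cells, had none in any mouse.

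miR-92b-3p was highest in 2 Givinostat mice and most even in the vehicle mice. This guide strand is best known from neural progenitors and was a minor part of the seed family in these plasma samples. In Givinostat mice it stood at 57.9 TMM CPM in mouse 31 (97 counts), 238 in mouse 34 (304 counts) and 115 in mouse 35 (139 counts). In vehicle mice it stood at 29.3, 27.9, 27.7 and 22.4 TMM CPM in mice 40, 41, 42 and 43, from 42, 38, 36 and 35 counts. Every Givinostat mouse was above every vehicle mouse, which held for 16 of the 368 miRNAs (4.35%). Mouse 34 was the highest of the 13 mice, as it was for 21 of the 368 miRNAs (5.71%).

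The naive groups overlapped the Givinostat mice. Naive wt mice 86, 89 and 95 stood at 47.5, 106 and 46.6 TMM CPM, and naive mdx mice 36, 37 and 39 at 58.3, 21.2 and 21.7. Mouse 89 was thus above Givinostat mouse 31, and mouse 36 stood level with it. As CPM of the library total, mouse 89 (130.0 CPM) was also above Givinostat mouse 35 (101 CPM). In the order of group means, 137 ± 92.1 TMM CPM (SD, n = 3) in Givinostat mice was followed by 66.7 ± 34.1 (n = 3) in naive wt, 33.7 ± 21.2 (n = 3) in naive mdx and 26.8 ± 3.04 (n = 4) in vehicle mice. No neighbours in this order were separated, since the ranges of each adjacent pair overlapped.

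**Figure D1:**
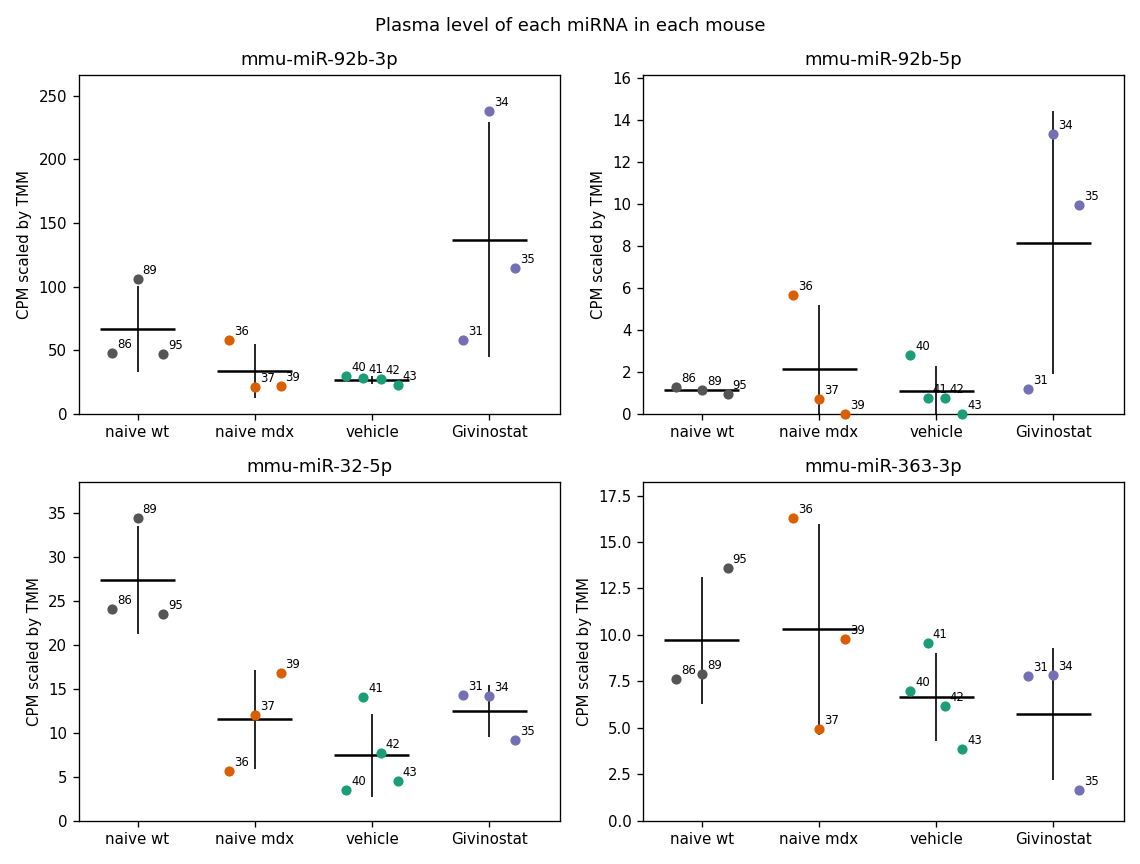
Level of each of the 4 miRNAs in each mouse, in TMM CPM (y axis, from 0), by group (x axis). Points are single mice with their numbers, horizontal bars group means and vertical bars 1 SD (cut at 0). For miR-92b-3p the 3 Givinostat mice (57.9 to 238) lie above the 4 vehicle mice (22.4 to 29.3), while naive wt mouse 89 (106) and naive mdx mouse 36 (58.3) lie among the Givinostat mice.

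The spread within groups was itself uneven. As CPM of the library total, the SD of miR-92b-3p over the 4 vehicle mice was 3.07 CPM, against 4.38 CPM from counting alone (0.701 times), a spread no larger than that of counting. In the Givinostat mice the SD was 81.8 CPM against 9.67 CPM from counting (8.46 times), in naive wt mice 9.46 times and in naive mdx mice 6.0 times the counting SD. Separate animals are expected to vary beyond counting, and these ratios only describe how even each group was.

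The fitted difference of miR-92b-3p between Givinostat and vehicle mice was 2.35 on the log2 scale (SE 0.46), a 5.09-fold higher level. Mouse 34 carried part of it: without that mouse the difference was 1.69 (SE 0.44), or 3.23-fold, and leaving out any other mouse gave 2.25 to 2.68. Among the other guide strands the log2 values were 0.77 (SE 0.46, interval −0.21 to 1.75) for miR-32-5p, 0.13 for miR-25-3p, −0.09 (SE 0.31) for miR-92a-3p and −0.16 (SE 0.52) for miR-363-3p. The interval of miR-32-5p overlapped that of miR-92b-3p, and differences between miRNAs were not tested. As miR-92b-3p was selected on this comparison, its interval is no test against 0.

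In the untreated genotypes, miR-92b-3p was lower in naive mdx than in naive wt mice by a log2 difference that missed the threshold, −0.98 (SE 0.49, 95% interval −2.02 to 0.06, edgeR adjusted p = 0.109). The groups overlapped through mouse 36, and the two-sided exact permutation test of CPM per library total gave p = 0.5, where 3 mice against 3 cannot give less than 0.1. The value turned on single mice: without mouse 36 the log2 difference was −1.6 (edgeR adjusted p = 0.0209), and without naive wt mouse 89 it was −0.5 (edgeR adjusted p = 0.439). With library totals it was −0.67 (edgeR adjusted p = 0.367). Vehicle and naive mdx mice differed by −0.33 (SE 0.47, interval −1.32 to 0.66, edgeR adjusted p = 0.828, exact permutation p = 0.571, smallest possible 0.0286). This comparison shares its vehicle mice with the one on which miR-92b-3p was selected.

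In vehicle against naive mdx mice none of the 368 miRNAs was called by edgeR in either direction (0%), and DESeq2 and limma likewise called 0. Before adjustment, 10 had a p under 0.05 with higher and 7 with lower levels in vehicle mice.

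miR-92b-5p, from the other arm, was at or near its floor in most mice. Its counts were 2, 17 and 12 in Givinostat mice 31, 34 and 35 (1.19, 13.3 and 9.93 TMM CPM) and 4, 1, 1 and 0 in vehicle mice 40, 41, 42 and 43 (2.79, 0.736, 0.769 and 0 TMM CPM). Naive wt mice had 2 counts each, and naive mdx mice 36, 37 and 39 had 9, 1 and 0. Mice 34, 35 and 36 were thus high, mouse 40 was little above its floor of 2.1 CPM, and the other 9 were below theirs on the scale of library totals.

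Mouse 31 had 97 counts of miR-92b-3p but 2 of miR-92b-5p, so the Givinostat and vehicle mice overlapped for miR-92b-5p. Naive wt mouse 89 had 188 counts of miR-92b-3p and also 2 of miR-92b-5p. The fitted log2 difference between Givinostat and vehicle mice was 2.79 (SE 0.88, 6.93-fold), from 31 counts in all against 6. It was 3.78 (13.7-fold) without vehicle mouse 40. Between naive mdx and naive wt mice the log2 difference was 0.87 (SE 1.07, edgeR adjusted p = 0.495, exact permutation p = 1), and between vehicle and naive mdx mice −0.92 (SE 1.05, edgeR adjusted p = 0.823, exact permutation p = 0.629). Both rested on the 9 counts of mouse 36, without which they were −1.57 and 1.55.

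The share of miR-92b-5p in the counts of both arms was therefore known only roughly in any mouse. It was 2.02% (Clopper-Pearson 95% interval 0.246 to 7.11) in mouse 31, 5.3% (3.11 to 8.34) in mouse 34 and 7.95% (4.17 to 13.5) in mouse 35. In naive mdx mouse 36 it was 8.82% (4.11 to 16.1) and in vehicle mouse 40 8.7% (2.42 to 20.8). The naive wt mice had 2.6, 1.05 and 1.98%. Summed over the mice of a group, the share was 5.43% (3.72 to 7.62) in Givinostat, 3.82% (1.42 to 8.13) in vehicle, 5.78% in naive mdx and 1.63% (0.601 to 3.51) in naive wt mice. The intervals of Givinostat and vehicle mice overlapped and are too wide to say whether the shares differed. For the miR-363 hairpin the share of miR-363-5p was much larger, 31.1 to 35.1% in all 4 groups.

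**Figure D2:**
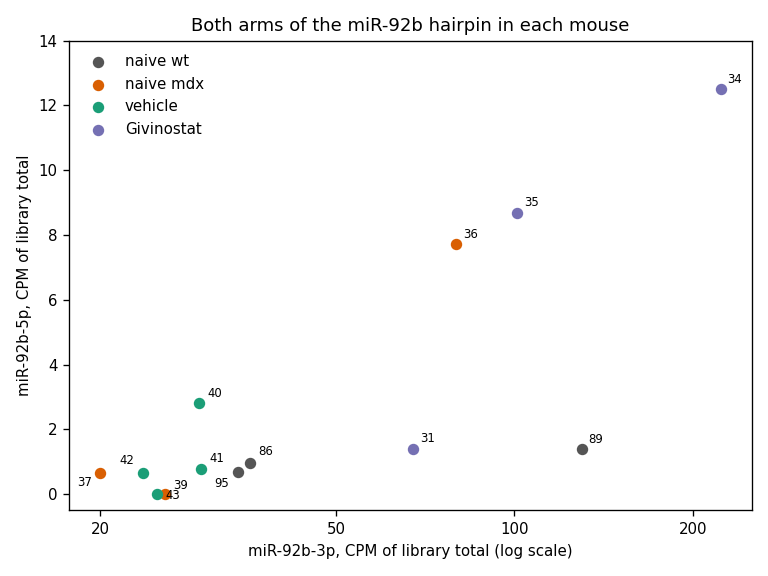
Level of miR-92b-5p (y axis) against miR-92b-3p (x axis, log scale) in each mouse, both in CPM of the library total and coloured by group, with mouse numbers. Mice 34, 35 and 36 are high for both arms, whereas mice 31 and 89 have high miR-92b-3p and 2 counts of miR-92b-5p.

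Because miR-92a-3p is near-identical and far more abundant, the ratio of the pair was followed as a measure that needs no scaling between libraries. miR-92b-3p made up 1.1, 5.76 and 2.37% of the counts of both in Givinostat mice 31, 34 and 35. In vehicle mice 40, 41, 42 and 43 it made up 0.502, 0.747, 0.661 and 0.378%. The share was 0.562, 1.72 and 0.891% in naive wt mice 86, 89 and 95, and 0.543, 0.538 and 0.422% in naive mdx mice 36, 37 and 39. Each Givinostat mouse was again above each vehicle mouse and, unlike on the level scale, above each naive mdx mouse. How many other ratios do so was not counted, and miR-92b-3p was selected on Givinostat against vehicle mice.

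On this ratio naive mdx mouse 36 no longer stood apart, since it also had the highest miR-92a-3p of the 13 mice (10674 TMM CPM). Every naive mdx mouse was below every naive wt mouse, but narrowly. The share was 0.543% (interval 0.438 to 0.664) in mouse 36 and 0.562% (0.443 to 0.704) in naive wt mouse 86. These intervals for counting error overlapped, and how many other ratios separate the naive groups was not counted. The log2 ratio was lower by 0.94 in naive mdx mice (−7.64 ± 0.21 against −6.7 ± 0.82, SD, n = 3 each, two-sided exact permutation p = 0.1, the smallest p that 3 against 3 can give). Vehicle and naive mdx mice differed by 0.15 (exact permutation p = 0.629). Givinostat exceeded vehicle mice by 2.2, with no test, and by 1.57 to 2.79 with each mouse left out in turn. The share was not fixed across mice, running from 0.378 to 5.76%. Per the study's methods, reads of miRNA length were mapped without mismatches, and the pair differs by C10U and C21G. Whether reads of miR-92a-3p were counted as miR-92b-3p was not tested.

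**Figure D3:**
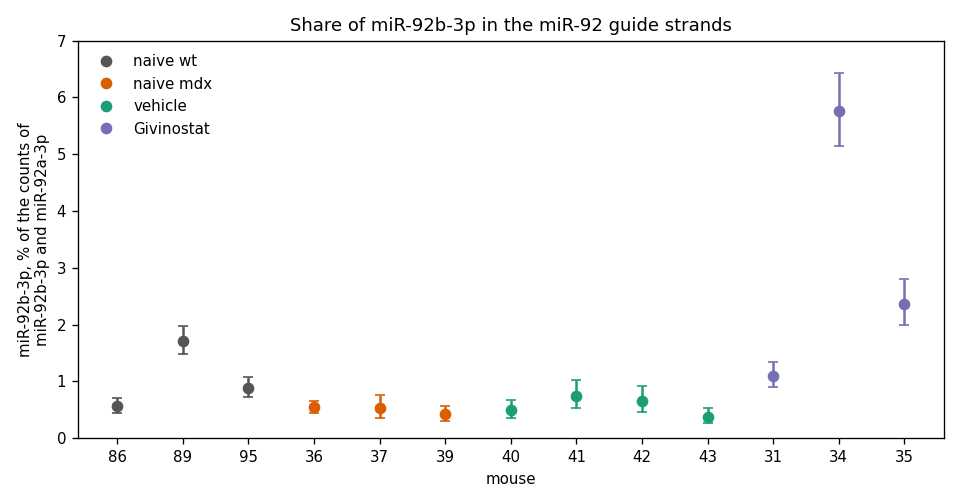
Share of miR-92b-3p in the counts of miR-92b-3p and miR-92a-3p together (y axis, percent, from 0) in each of the 13 mice (x axis, mouse number), with Clopper-Pearson 95% intervals for counting error, coloured by group. The 3 Givinostat mice (1.1, 5.76 and 2.37%) lie above the 4 vehicle mice (0.378 to 0.747%) and the 3 naive mdx mice (0.422 to 0.543%).

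miR-32-5p was the 1 of the 4 called between the untreated genotypes. It is processed from an intron of Tmem245, and Bcl2l11 is among its known targets. Naive wt mice 86, 89 and 95 stood at 24.1, 34.4 and 23.5 TMM CPM (38, 61 and 50 counts), and naive mdx mice 36, 37 and 39 at 5.64, 12.0 and 16.8 (9, 17 and 31 counts). All naive mdx mice were below all naive wt mice, as for 102 of the 368 miRNAs (27.7%). The log2 difference was −1.23 (SE 0.45, interval −2.18 to −0.29, edgeR adjusted p = 0.0339), within a background of 16.6% of miRNAs called lower.

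The call on miR-32-5p depended on the scaling. As CPM of the library total the groups overlapped, at 17.2 to 42.2 CPM in naive wt and 7.71 to 19.9 CPM in naive mdx mice (two-sided exact permutation p = 0.3). With library totals in edgeR the log2 difference was −0.94 (adjusted p = 0.159), and leaving out mouse 36, 37, 89 or 95 also ended the call, with values of −0.87, −1.23, −1.02 and −1.31.

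In the dosed mice miR-32-5p was low throughout. Vehicle mice 40, 41, 42 and 43 stood at 3.49, 14.0, 7.69 and 4.48 TMM CPM and Givinostat mice 31, 34 and 35 at 14.3, 14.1 and 9.11. These ranges overlapped, and all 7 dosed mice were below the lowest naive wt mouse at 23.5. The share of all miRNAs for which this held was not computed. For naive mdx below naive wt mice it was 27.7% of the 368 miRNAs. Vehicle against naive mdx mice gave −0.65 (SE 0.46, interval −1.62 to 0.32, edgeR adjusted p = 0.801, exact permutation p = 0.286), and Givinostat against vehicle mice 0.77 (SE 0.46). Mouse 34, the highest for miR-92b-3p, stood level with mouse 31 for miR-32-5p, at 14.1 and 14.3 TMM CPM.

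miR-363-3p showed no difference that passed a test. It is the guide strand of the last hairpin of the X-linked miR-106a-363 cluster, a paralogue of the miR-17-92a cluster. Naive wt mice stood at 7.6 to 13.6 TMM CPM, naive mdx mice at 4.95 to 16.3, vehicle mice at 3.84 to 9.56, and Givinostat mice 31, 34 and 35 at 7.76, 7.83 and 1.66. The lowest value was the 2 counts of mouse 35, which was second highest for miR-92b-3p. All 4 groups overlapped.

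Naive mdx against naive wt mice gave a log2 difference of 0.08 for miR-363-3p (SE 0.49, interval −0.94 to 1.11, edgeR adjusted p = 0.9, exact permutation p = 0.5), whose sign turned without mouse 36, 86 or 89. Vehicle against naive mdx mice gave −0.65 (SE 0.48, interval −1.67 to 0.37, edgeR adjusted p = 0.801, exact permutation p = 0.257), and Givinostat against vehicle mice −0.16 (SE 0.52, interval −1.27 to 0.95), which turned to 0.18 without mouse 35 and 0.01 without mouse 41. At 2 to 29 counts per mouse these intervals leave room for a change of 1 log2 unit or near it in at least 1 direction. Of 8 other mature miRNAs of the cluster, 6 had a count, 2 were tested and edgeR called none between naive mdx and naive wt or between vehicle and naive mdx mice (0 at an unadjusted p under 0.05).

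**Figure D4:**
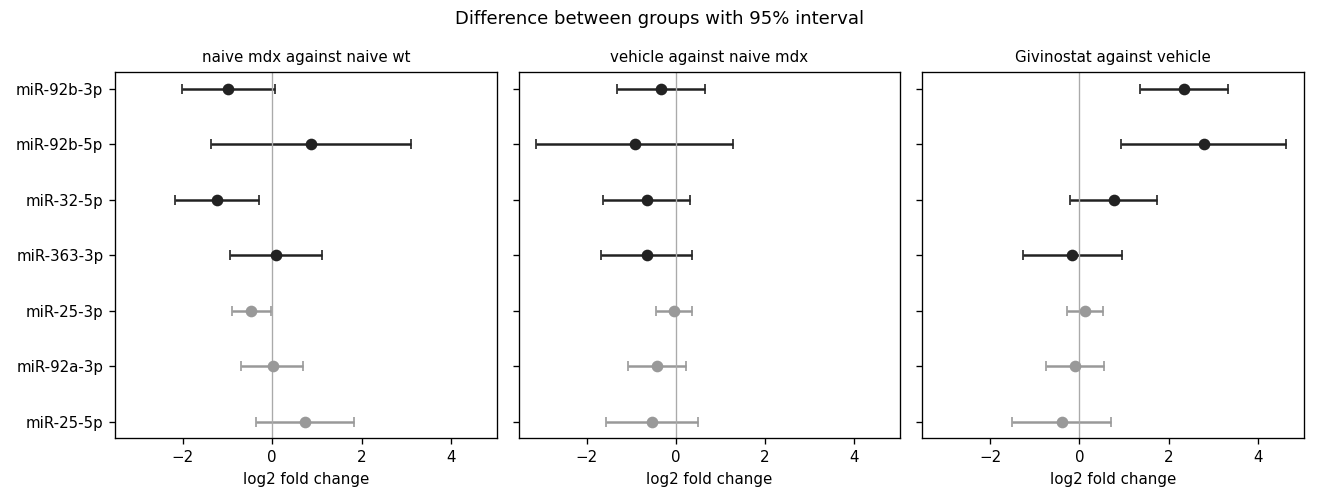
Fitted log2 fold change with 95% interval (x axis) for the 4 miRNAs (black) and for miR-25-3p, miR-92a-3p and miR-25-5p (grey) in each of the 3 comparisons, on TMM-scaled counts. Only the interval of miR-32-5p among the black points excludes 0 in naive mdx against naive wt mice (−2.18 to −0.29). The Givinostat values and intervals are descriptive and no test against 0. miR-92b-3p was selected on that comparison, and miR-92b-5p passed the filter only through mice in which it was high.

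Within the whole seed family, these miRNAs are minor. miR-25-3p made up 39.7 to 63.4% and miR-92a-3p 34.3 to 59.9% of the family's guide-strand counts per mouse, and miR-92b-3p 0.177 to 0.278% in vehicle and 0.452 to 2.1% in Givinostat mice. The summed family level was 10061 to 12678 TMM CPM in vehicle and 11134 to 12792 in Givinostat mice, so the groups overlapped for the sum. Of the 6 guide strands, 5 were tested between naive mdx and naive wt mice: 1 was called lower (miR-32-5p) and 0 higher, beside 16.6% lower and 26.9% higher over all 368, with a median log2 difference of −0.47 against 0.04. At 5 miRNAs, 1 call is near that background. miR-25-3p gave −0.47 (SE 0.21, edgeR adjusted p = 0.0731) and miR-92a-3p 0.01 (SE 0.33).

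Of 7 other-arm miRNAs of the family, 5 had a count and 2 were tested, miR-92b-5p and miR-25-5p, and edgeR called none (0 at an unadjusted p under 0.05). Among 13 cluster partners of miR-25 and miR-92a, 10 were tested and 1 was called lower in naive mdx mice (16.6% over all 368), miR-93-5p (log2 −0.65, SE 0.24, edgeR adjusted p = 0.0362). It was named after its value was seen. At an unadjusted p under 0.05 by edgeR, 4 of the 10 passed, beside 112 higher and 86 lower of all 368. The median log2 difference of the 10 was −0.64, against 0.04 over all 368, and 2 of the 10 were positive. Whether the list differed as a set was not tested. In vehicle against naive mdx mice none of either list was called or had an unadjusted p under 0.05 (0).

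The miRNAs whose levels ran most like that of miR-92b-3p over the 13 mice were, of 367, miR-92b-5p (Spearman's rho 0.88), miR-451a (0.71), miR-17-3p (0.65), miR-224-5p (0.64) and miR-28a-5p (0.63). These values describe the same libraries and scaling and carry no test. The seed relatives were further down, with rho 0.45 for miR-25-3p, 0.24 for miR-32-5p, 0.2 for miR-92a-3p and 0.16 for miR-363-3p. Differences between these values were not tested, and the ranks of miR-92b-5p rest on 0 to 2 counts in 9 of the 13 mice.

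miR-451a is abundant in red blood cells, and its log2 ratio to miR-23a-3p is used as a sign of red cell lysis in plasma. The ratio was −0.69, −0.87 and −1.54 in Givinostat mice 31, 34 and 35. In vehicle mice 40 to 43 it was −1.77, −1.67, −2.04 and −2.14, so that it, too, was higher in every Givinostat mouse. miR-451a was named for its rho to miR-92b-3p, so this separation is not independent of that choice. No share for other ratios was counted. Naive wt mice had −0.11 to 0.11 and naive mdx mice −2.68 to −1.8. The sum of 8 red blood cell miRNAs, all with a count, was 12278 to 14171 TMM CPM in Givinostat and 10022 to 15197 in vehicle mice. These ranges overlapped, but miR-486b-5p led the sum and the 8 did not move together. Between Givinostat and vehicle mice 4 of the 8 had a positive log2 difference. It was 0.76 for miR-451a, 0.76 for miR-144-3p, 0.79 for miR-144-5p and 0.3 for miR-16-5p. For the miR-486 strands it was negative, from −1.2 for miR-486a-5p to −0.12 for miR-486b-5p, all with no test. In naive mdx against naive wt mice 3 of the 8 were called higher and 4 lower, beside 26.9% and 16.6% over all 368 miRNAs.

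Markers of ciliated epithelium and testis, from the miR-34b/c and miR-449 families, also had a higher sum in every Givinostat than in every vehicle mouse. The sum was 79.4, 370.5 and 139 TMM CPM in Givinostat mice 31, 34 and 35, in the same order as miR-92b-3p. In vehicle mice 40, 41, 42 and 43 it was 54.5, 40.5, 49.2 and 55.1, in another order: mouse 43 was highest for the sum and lowest of them for miR-92b-3p. How often such a sum separates the groups or keeps the order of the Givinostat mice was not counted. Of the 9 markers, 6 had a count, and 3 were tested: miR-34b-3p, miR-34c-5p and miR-34c-3p. No miR-449 strand passed the filter. At 0 in all mice of a group were 6 markers in vehicle and 3 in Givinostat mice. The sum was 22.6 to 30.6 in naive wt mice, where miR-92b-3p was not low. In naive mdx mice 36, 37 and 39 it was 47.6, 74.3 and 56.0 TMM CPM. There miR-92b-3p stood at 58.3, 21.2 and 21.7, in another order. The part of red cell lysis or of these cells in the miR-92b-3p values was not tested.

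Markers of other cells overlapped between Givinostat and vehicle mice, and their calls between naive mdx and naive wt mice are to be read beside the 26.9% higher and 16.6% lower over all 368 miRNAs. The sum of 15 neuronal miRNAs, led by miR-128-3p, which muscle also expresses, was 7352 to 12582 against 6469 to 17609 TMM CPM, and in naive mdx against naive wt mice 1 of the 6 tested was called higher and 3 lower. For 7 epithelial miRNAs the sums were 5650.5 to 6802 and 4084 to 6035, with 7 of 7 called lower in naive mdx mice. For 4 platelet and myeloid miRNAs they were 3450.2 to 5099.6 and 3008 to 4071, with 1 of 4 called lower, near that background. The muscle list was 325458 to 534642 and 319567 to 472267, with 6 of 7 tested called higher in naive mdx mice, and the liver list 28808 to 76553 and 30907 to 194055, with 4 of 4 called lower. Their part in the values of the 4 miRNAs was not tested.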

How the data were processed

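Small RNA was sequenced from the plasma of 13 mice. Per the labels and the study's methods, the authors trimmed and collapsed the reads, mapped them to GRCm38 (mm10) with Bowtie and summed all isomiR reads of each canonical locus. Versions in the submitters' processing notes are Bowtie 1.0.0, cutadapt 1.4.2 and bcl2fastq 1.37.0. The deposited count table holds raw counts of 1907 mature miRNAs, and the deposited log2 table holds each count on a log2 scale after 1 constant factor per library, with low counts blank. Library preparation ligates adapters with unequal efficiency, so levels of different miRNAs are compared only roughly.

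Groups were taken from the sample titles, and all columns matched a sample. Counts were filtered with filterByExpr (minimum count 10), scaled by TMM and fitted over all 13 libraries with edgeR 4.0.16 (quasi-likelihood test, Benjamini-Hochberg over 368 miRNAs, threshold 0.05) in R 4.3.3. Calls were compared with other scalings and filters, DESeq2 1.42.0 and limma 3.58.1 (log2 values, pseudocount 1), and with each mouse left out. The 8 exact permutation tests of the 4 miRNAs were two-sided, over mice. The statistics were tested on simulated data. No pair of libraries agreed within sampling noise. The 4 miRNAs, the marker lists (red blood cell, neuron, ciliated epithelium and testis, epithelium, muscle, liver, platelet and myeloid), the family and cluster lists, and the rule for named miRNAs (the 4, the other guide strands of the seed, and the 5 highest rho values to miR-92b-3p) were chosen with earlier results of these data known. The sources used here do not say whether blood was drawn or libraries made in batches.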

Additional observations from a re-analysis of the deposited data

How the results depend on the processing

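Calls between naive mdx and naive wt mice numbered 160, and 123 to 180 under the 8 other settings and 126 to 166 with 1 mouse left out. Vehicle against naive mdx mice gave 0 calls under all 15 alternatives. For miR-92b-3p in naive mdx against naive wt mice the log2 difference passed the threshold with upper-quartile scaling (−1.2, adjusted p = 0.0426, edgeR) and with no count filter (−1.01, adjusted p = 0.049), where the adjusted p ran from 0.0209 to 0.439 over all alternatives. It was −1.6 to −0.5 with 1 mouse left out. In vehicle against naive mdx mice it was −0.52 to 0.32, turning to 0.32 without mouse 36. For miR-92b-5p the values with 1 mouse left out were −1.57 to 1.47 and −1.91 to 1.55, turning to −1.57 and 1.55 without mouse 36. For miR-32-5p in naive mdx against naive wt mice the call was lost with library totals (−0.94), in a fit of the 2 groups only (−1.25, adjusted p = 0.0569) and with limma (−0.93, adjusted p = 0.209), and the range was −1.65 to −0.87 with 1 mouse left out (edgeR and other adjusted p values from 0.0186 to 0.209). For miR-363-3p it turned to −0.17 with upper-quartile scaling and −0.07 in a fit of the 2 groups only, and was −0.36 to 0.44 with 1 mouse left out, turning to −0.36, −0.11 and −0.07 without mouse 36, 86 or 89. The causes were not tested. Relative to TMM, library totals and limma moved the median of all miRNAs by 0.37 and upper quartiles by −0.22 in that comparison, library totals and limma by −0.2 in vehicle against naive mdx, and upper quartiles by 0.11 in Givinostat against vehicle mice. Against vehicle mice, the Givinostat values of miR-92b-3p, miR-92b-5p and miR-32-5p kept their sign under every alternative that gave a value. That of miR-363-3p turned without mouse 35 or 41. A kept sign is no support for a difference in miR-92b-3p, which was selected on that comparison. The same holds for miR-92b-5p, which passed the filter only through mice in which it was high. A filter at a mean of 10 CPM removed miR-92b-5p and miR-363-3p, and a fit of 2 groups left miR-92b-5p without a value in all 3 comparisons. Counts under 10 limit miR-92b-5p in all mice but 34 and 35, and miR-32-5p and miR-363-3p in part of the mdx mice. No paired analysis was possible because the groups share no mouse numbers.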
